A study of Homo sapiens with 2 samples.

Results

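The endothelial junction and surface genes are 10 genes chosen by name, PECAM1, CDH5, CD34, TEK, TIE1, ESAM, EMCN, ENG, ROBO4 and ICAM2, out of 17397 genes listed in the RNA-Seq tables of this series. All 10 were found in both tables by their NCBI Gene number. The RNA-Seq compared 1 library of wild-type (WT) cells with 1 library of MEIS2-/- cells. Both came from H1, a human embryonic stem cell line, at day 4 of hematopoietic differentiation, after 2 days with activin A (50 ng/ml) and BMP4 (40 ng/ml) and 2 days with VEGF (40 ng/ml) and bFGF (50 ng/ml). The MEIS2-/- cells were made with a lentiviral CRISPR/Cas9 vector, puromycin selection and expansion of colonies from single cells. The sources used here do not say which homozygous clone was sequenced or whether the WT cells carried a vector. With 1 library per genotype, no value below has a replicate check, no test was possible, and the differences describe these libraries rather than the genotypes.

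The members build and mark the surface of endothelial cells. VE-cadherin (CDH5), CD31 (PECAM1), ESAM and ICAM2 are adhesion molecules found where endothelial cells touch each other. TEK (TIE2) and TIE1 are the angiopoietin receptor and its partner, endoglin (ENG) is a co-receptor for BMP9 and TGF-β signals, and ROBO4 is an endothelial receptor of the roundabout family. CD34 and endomucin (EMCN) are heavily glycosylated surface sialomucins. In hematopoietic differentiation, hemogenic endothelium expresses such genes before blood cells arise from it. The study sorted its hemogenic endothelial progenitors as CD31+CD34+ cells. By flow cytometry at day 4, it also reported a smaller CD31+CD34+ population with MEIS2 deletion. How far this bears on the mRNA levels below was not tested. Several members are not particular to endothelium, since CD34, PECAM1, ICAM2, TEK and ENG are also found on hematopoietic cells, and ENG on mesenchymal cells.

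MEIS2 mRNA was at 10.85 FPKM in WT and 3.44 FPKM in MEIS2-/- cells, which is a log2 fold change of −1.63. FPKM is the number of fragments per kilobase of transcript, scaled to the number of mapped fragments, so levels can be compared between genes. The log2 fold change is that of MEIS2-/- over WT with a pseudocount of 0.1 FPKM, which shrinks the values of genes with low levels. The genes that reached 1 FPKM in either library, 13075 in number, are called the compared genes. Of these, 7.97% were 2-fold or more below WT in the MEIS2-/- library and 7.84% were 2-fold or more above it. The median of these genes was 0.12, so the members are read against a shift of that size. In bulk RNA, fewer cells of a type and less RNA per cell cannot be told apart.

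Of the 10 members, 8 were at 1 FPKM or more in WT cells and 7 in MEIS2-/- cells. Among all listed genes the shares were 72.2% and 72.1%. PECAM1 was the member that lay above 1 FPKM in WT cells and below it in MEIS2-/- cells. EMCN and ROBO4 were below 1 FPKM in both libraries. All 8 members that passed the limit had lower FPKM in MEIS2-/- cells, where 40.6% of all compared genes were lower, or 49.5% after a rescaling that set the median log2 ratio of the libraries to 0. These 8 passed through their WT level, 1 of them through that level alone. TIE1, CDH5 and ESAM were at least 2-fold lower, 3 of the 8, against 7.97% of all compared genes and 8.04% of the 8231 genes between 1.53 and 21.80 FPKM in WT cells, the span of these members. The other 5 were lower by less than 2-fold. The median log2 fold change of the 8 was −0.89. Summed over all 10 members, the level was 87.1 FPKM in WT and 42.3 FPKM in MEIS2-/- cells.

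**Figure D1:**
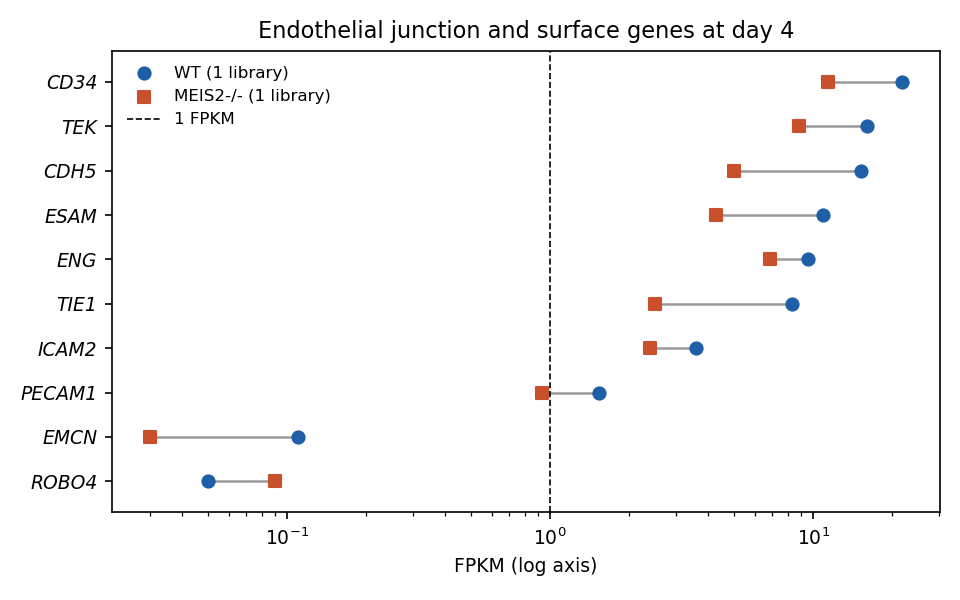
FPKM of each of the 10 members on a log axis, with a circle for the WT library, a square for the MEIS2-/- library and a dashed line at 1 FPKM. In 9 of 10 rows the square lies to the left of the circle, PECAM1 crosses the line from 1.53 to 0.93 FPKM, and EMCN and ROBO4 stay far below it.

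Among the adhesion molecules of cell contacts, CDH5 showed the largest difference. CDH5 (NCBI Gene 1003, chromosome 16 from 66366622 to 66404786 on the plus strand of GRCh38 in GENCODE 29) was at 15.20 FPKM in WT and 5.02 FPKM in MEIS2-/- cells, with a log2 fold change of −1.58. Its protein, VE-cadherin, holds adherens junctions of endothelium together, and its mRNA kept 33.0% of the WT level. Of the compared genes, 3.50% had a log2 fold change as low. ESAM (NCBI Gene 90952, chromosome 11 from 124752583 to 124762290, minus strand), an immunoglobulin-type adhesion molecule of endothelial tight junctions, was at 10.95 and 4.27 FPKM. Its log2 fold change was −1.34, as low as in 4.96% of the compared genes.

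The other adhesion molecules were lower in level and differed less. PECAM1 (NCBI Gene 5175, chromosome 17 from 64319415 to 64413776, minus strand) was at 1.53 FPKM in WT and 0.93 FPKM in MEIS2-/- cells. Its log2 fold change was −0.66, and 12.8% of the compared genes were as low. ICAM2 (NCBI Gene 3384, chromosome 17 from 64002594 to 64020634, minus strand), a ligand of leukocyte integrins, was at 3.60 and 2.39 FPKM. Its log2 fold change was −0.57, and 14.8% of the genes were as low. ICAM2 overlaps PRR29, which lies on the opposite strand and shares 869 of the 3243 exonic bases of ICAM2 (26.8%). Whether fragments were counted by strand is not given in the sources used here, so reads of the pair may not have been kept apart, and PRR29 itself was at 1.60 and 0.46 FPKM. The 4 adhesion molecules summed to 31.3 FPKM in WT and 12.6 FPKM in MEIS2-/- cells.

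The 4 receptors spanned the whole range of differences, from TIE1 with the largest fold difference of any member to ENG with the smallest of the 8 and ROBO4 near 0 in both libraries. Their promoters are shown for that reason. The 250 bases before the annotated start were taken from RefSeq on GRCh38.p14 (the submitters' processing notes name hg19) and are written 5′ to 3′ in the direction of transcription. RefSeq and GENCODE 29 place the starts differently. By the GENCODE positions given here, the window of TIE1 lies before the gene, those of TEK and ENG reach into it, and that of ROBO4 lies wholly inside it. Capitals mark GGAA and its reverse complement TTCC, the core letters bound by ETS factors such as ETV2, ERG and FLI1.

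TIE1, chr1:43300732-43300981, plus strand: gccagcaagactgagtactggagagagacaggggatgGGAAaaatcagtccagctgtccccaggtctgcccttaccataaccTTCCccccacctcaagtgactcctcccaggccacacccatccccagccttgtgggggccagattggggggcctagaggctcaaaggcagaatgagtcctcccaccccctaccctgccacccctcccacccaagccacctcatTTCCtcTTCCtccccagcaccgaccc
TEK, chr9:27108975-27109224, plus strand: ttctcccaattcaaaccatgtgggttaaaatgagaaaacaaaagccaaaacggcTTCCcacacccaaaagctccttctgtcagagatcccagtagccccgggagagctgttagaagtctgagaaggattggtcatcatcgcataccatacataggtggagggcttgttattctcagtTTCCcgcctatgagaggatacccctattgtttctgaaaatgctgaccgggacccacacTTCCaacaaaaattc
ENG, chr9:127854659-127854908, minus strand: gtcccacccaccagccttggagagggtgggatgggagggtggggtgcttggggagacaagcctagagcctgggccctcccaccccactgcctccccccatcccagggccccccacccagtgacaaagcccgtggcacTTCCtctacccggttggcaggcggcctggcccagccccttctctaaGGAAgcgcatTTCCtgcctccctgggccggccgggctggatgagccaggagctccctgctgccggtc
ROBO4, chr11:124897866-124898115, minus strand: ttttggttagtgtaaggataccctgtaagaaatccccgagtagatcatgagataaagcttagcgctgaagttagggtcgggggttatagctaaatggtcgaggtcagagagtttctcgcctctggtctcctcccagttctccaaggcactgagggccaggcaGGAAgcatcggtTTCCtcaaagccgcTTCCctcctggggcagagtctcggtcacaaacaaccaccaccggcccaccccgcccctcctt

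TIE1 (NCBI Gene 7075, chromosome 1 from 43300993 to 43323108, plus strand) was at 8.32 FPKM in WT and 2.51 FPKM in MEIS2-/- cells. The log2 fold change of −1.69 left 30.2% of the WT level, and 2.95% of the compared genes were as low. TEK (NCBI Gene 7010, chromosome 9 from 27109141 to 27230175, plus strand) was at 16.01 and 8.84 FPKM, a log2 fold change of −0.85 that left 55.2% of the WT level, and 9.58% of the compared genes were as low. These receptors form complexes with each other on endothelial cells, and the level of TEK was 1.92 times that of TIE1 in WT cells and 3.52 times in MEIS2-/- cells. ENG (NCBI Gene 2022, chromosome 9 from 127815012 to 127854756, minus strand) was at 9.57 and 6.85 FPKM. With a log2 fold change of −0.48 it kept 71.6% of its WT level, and 17.4% of the compared genes were as low. ROBO4 (NCBI Gene 54538, chromosome 11 from 124883691 to 124898500, minus strand) was at 0.05 FPKM in WT and 0.09 FPKM in MEIS2-/- cells. No direction is drawn from ROBO4, since no depth is known for either library and both values are within a few steps of the last decimal deposited.

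Promoters were matched for 6 of the 10 members, the 4 receptors, CD34 and EMCN. By the GENCODE positions the windows of CD34 and EMCN also lie wholly inside the genes. That of EMCN, chr4:100518023-100518272 on the minus strand, is far from the GENCODE start at 100880126. GGAA or TTCC occurred in all 6 windows and in 92.7% of the 35116 annotated windows of the same length. The number of matches was 4 for TIE1 and EMCN, 3 for TEK, ENG and ROBO4 and 2 for CD34, beside a mean of 2.93 over all windows. At least 4 matches were in 34.3% of all windows, at least 3 in 55.1% and at least 2 in 76.5%. Whether such letters bear on the levels of the members was not tested. Longer ETS motifs that contain this core were searched as well. CCGGAAGT, present in 3.42% of all windows, and the other long form ACAGGAAG, present in 2.42%, were in none of the 6. The E-box CANNTG, the letters bound by TAL1 and its partners, was in 4 of 6 windows and in 61.8% of all. The KLF letters CACCC were in 5 of 6 and 54.7%, with 6 matches in ENG and 4 in TIE1. The SOX letters ACAAT were in 2 of 6 and 24.6%, in TEK and EMCN. The GATA letters AGATAA were found in the window of ROBO4, 1 of 6, and in 9.17% of all windows. The MEIS letters TGACAG were found in the window of TEK, 1 of 6, and in 13.0% of all windows. Each motif was searched on both strands. A match describes letters and no binding was measured.

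CD34 was the most abundant member in both libraries. CD34 (NCBI Gene 947, chromosome 1 from 207880972 to 207911402, minus strand) was at 21.80 FPKM in WT and 11.36 FPKM in MEIS2-/- cells, and 8.61% of the compared genes had a log2 fold change as low as its −0.93. After the rescaling its value was −1.05, which is past 2-fold, so the count of members at least 2-fold lower became 4 of 8, where 9.15% of all compared genes were at least 2-fold lower on the same scale. EMCN (NCBI Gene 51705, chromosome 4 from 100395341 to 100880126, minus strand), a sialomucin of veins and capillaries, was at 0.11 and 0.03 FPKM. No fold change is read from such levels. The pair of markers used for the hemogenic endothelial gate differed widely in mRNA level, with CD34 at 14.2 times the level of PECAM1 in WT cells and 12.2 times in MEIS2-/- cells.

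The order of the members changed little between the libraries. In WT cells it ran from CD34 and TEK through CDH5, ESAM, ENG and TIE1 to ICAM2, PECAM1, EMCN and ROBO4. In MEIS2-/- cells ENG stood above CDH5 and ESAM, and ROBO4 above EMCN, while the other positions stayed. With no replicate, it cannot be said which neighbours in this order differ beyond the spread between cultures. Among the 8 members at 1 FPKM or more, the log2 fold changes spanned 1.21, from −1.69 to −0.48, so the members kept unequal shares of their WT levels. All 8 lay below the 25th percentile of the compared genes, −0.25, and TIE1, CDH5 and ESAM lay below the 5th percentile, −1.33. Rescaling lowered each of the 8 values by about the same amount and kept their order. Sequence shared with other genes was limited. Between 0% of the 31-base stretches of the annotated transcripts (TEK and ENG) and 3.70% (ESAM) also occurred in transcripts of another gene.

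**Figure D2:**
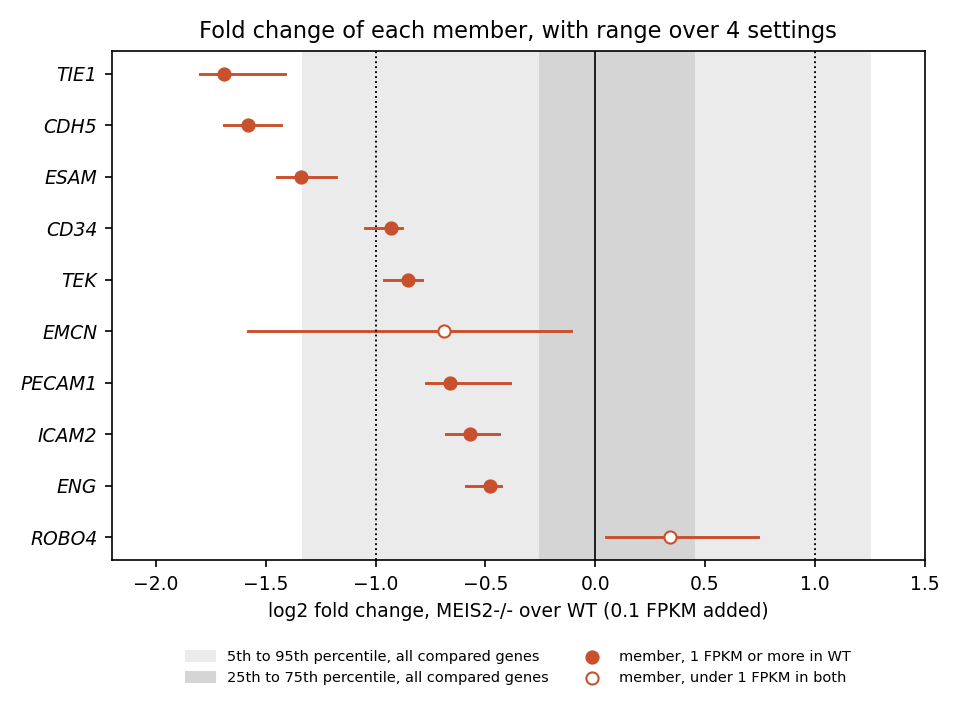
Log2 fold change of MEIS2-/- over WT for each of the 10 members, filled points for the 8 members at 1 FPKM or more in WT cells and open points for EMCN and ROBO4, with lines for the range over 4 other pseudocounts and scalings. The shaded bands hold the middle 50% and 90% of the 13075 compared genes and dotted lines mark 2-fold. The 8 filled points lie left of the inner band, between −1.69 and −0.48, and the line of EMCN, from −1.58 to −0.11, is the widest.

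The proteins that VE-cadherin and the tight junction molecules work with were examined next. Of 19 junction partner genes, 17 were compared. None was at least 2-fold lower as deposited and 1 was after rescaling (CGNL1, a scaffold of junctions, at 49.68 FPKM in WT and 26.36 FPKM in MEIS2-/- cells). The number at least 2-fold higher was 2 in either case. The median of the 17 was 0.16. The cytoplasmic partners of VE-cadherin were abundant in both libraries. β-catenin (CTNNB1) was at 134.21 FPKM in WT and 138.49 FPKM in MEIS2-/- cells, which is a log2 fold change of 0.05 that became −0.07 after rescaling. p120-catenin (CTNND1) was at 56.26 and 62.80 FPKM and plakoglobin (JUP) at 161.63 and 205.85 FPKM. The level of CTNNB1 was thus 8.83 times that of CDH5 in WT cells and 27.6 times in MEIS2-/- cells.

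CDH1 and CDH2, classical cadherins known mainly from other tissues, were set beside CDH5. N-cadherin (CDH2), the cadherin of mesenchymal and neural cells, was at 52.48 and 55.96 FPKM, a log2 fold change of 0.09 that became −0.02 after rescaling. E-cadherin (CDH1), the cadherin of epithelia and pluripotent cells, was at 10.68 FPKM in WT and 33.35 FPKM in MEIS2-/- cells, with 1.63. Of the summed level of CDH1, CDH2 and CDH5, CDH5 made up 19.4% in WT cells and 5.32% in MEIS2-/- cells. The share of CDH1 was 13.6% and 35.4%. This sum leaves out other cadherins at similar levels, CDH3 (30.90 and 59.50 FPKM), CDH11 (51.25 and 26.65 FPKM) and CDH24 (38.03 and 21.48 FPKM). The shares are thus of CDH1, CDH2 and CDH5 alone. At tight junctions, OCLN (occludin) was at 3.13 and 7.64 FPKM, more than 2-fold higher. CLDN5, the claudin that defines endothelial tight junctions, was below 1 FPKM in both libraries, at 0.28 and 0.65 FPKM. Epithelial cells also use most of the 19 partner genes, so this list does not measure endothelium alone.

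**Figure D3:**
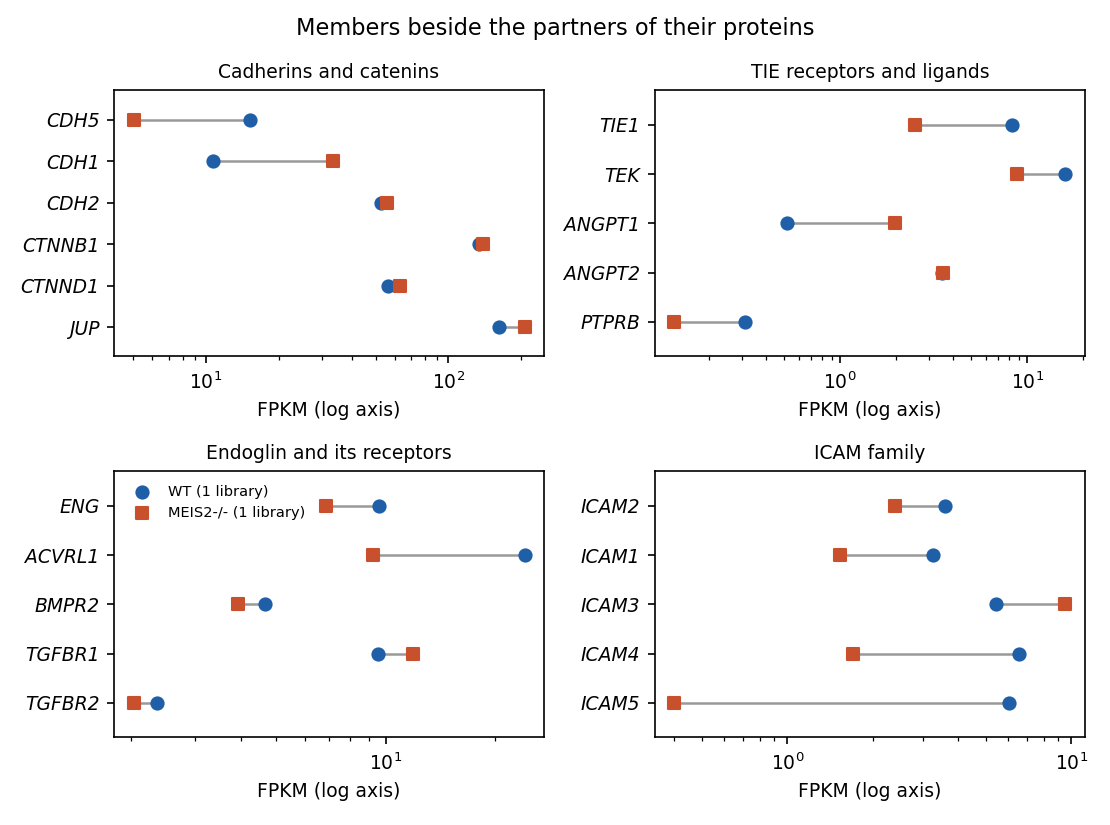
FPKM on log axes in the WT library (circles) and the MEIS2-/- library (squares) for members and the partners of their proteins, in panels for cadherins and catenins, TIE receptors and ligands, endoglin with its receptors, and the ICAM family. CDH5 lies to the left in MEIS2-/- cells while CDH1 lies to the right and the catenins nearly coincide. ACVRL1 differs more than ENG, and ICAM5 more than ICAM2.

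The ligands of TEK were low at day 4. ANGPT1, the activating angiopoietin made by cells around vessels, was at 0.52 FPKM in WT and 1.96 FPKM in MEIS2-/- cells, which is a log2 fold change of 1.73. ANGPT2, the context-dependent ligand of endothelial origin, was at 3.50 and 3.56 FPKM. PTPRB, the phosphatase that acts on TEK and VE-cadherin, was at 0.31 and 0.13 FPKM. Of the 6 genes of this list, 3 were compared, with 0 at least 2-fold lower and ANGPT1 at least 2-fold higher.

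In the endoglin pathway, 17 of 18 genes were compared, with 2 at least 2-fold lower, 1 at least 2-fold higher and a median of −0.20. ACVRL1 (ALK1), the endothelial type I receptor that works with endoglin, was at 24.05 FPKM in WT and 9.25 FPKM in MEIS2-/- cells, which is a log2 fold change of −1.37. Its level was 2.51 times that of ENG in WT cells and 1.35 times in MEIS2-/- cells. BMP10, a ligand of this receptor, was at 2.29 and 0.74 FPKM, and the other ligand, GDF2 (BMP9), at 0.20 and 0.18 FPKM. SMAD1, a signal transducer below it, was at 3.55 and 7.97 FPKM, with 1.14. The target genes ID1 (664.99 and 837.65 FPKM), ID2 (211.68 and 156.99 FPKM) and ID3 (529.13 and 321.63 FPKM) were highly expressed in both libraries and went in both directions, each by less than 2-fold.

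Relatives of ROBO4 and ICAM2 were expressed at higher levels than ROBO4 and at levels like that of ICAM2. ROBO1, the widely expressed SLIT receptor, was at 8.13 FPKM in WT and 6.53 FPKM in MEIS2-/- cells, and UNC5B, a vascular receptor that binds ROBO4, at 27.82 and 17.95 FPKM. Of 12 SLIT and ROBO genes, 10 were compared, and ROBO3, at 1.99 and 0.86 FPKM, was the 1 at least 2-fold lower. Among 13 ICAM family and ligand genes, 11 were compared, 4 were at least 2-fold lower and 2 at least 2-fold higher, with 1 of the higher genes, EZR, at 0.92 after rescaling. ICAM5 showed the largest difference of these lists, at 6.02 and 0.40 FPKM, a log2 fold change of −3.61. ICAM4, known from red blood cells, was at 6.53 and 1.70 FPKM, and ICAM1, the inducible member, at 3.26 and 1.53 FPKM. ICAM3, known from leukocytes, was at 5.44 and 9.52 FPKM. Integrin β2 (ITGB2), the leukocyte partner chain that binds ICAM2, was at 1.72 and 0.43 FPKM. VCAM1 was at 0.49 and 2.06 FPKM. The sialomucin closest to CD34, podocalyxin (PODXL), was at 195.32 and 166.39 FPKM, or 8.96 times the level of CD34 in WT cells and 14.6 times in MEIS2-/- cells. PODXL is also a surface protein of pluripotent cells. E-selectin (SELE) and P-selectin (SELP) were below 1 FPKM in both libraries.

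Other endothelial surface genes gave a wider range than the members. Of 20 such genes, 19 were listed and 14 compared, of which 7 were at least 2-fold lower and none at least 2-fold higher, with a median of −1.16. After rescaling VWF was past 2-fold as well, which made 8. CALCRL, the receptor chain for adrenomedullin, was at 2.70 FPKM in WT and 0.30 FPKM in MEIS2-/- cells (−2.81). PLVAP, which forms the diaphragms of fenestrae, was at 45.46 and 10.38 FPKM (−2.12). SCARF1, a scavenger receptor, was at 11.54 and 2.82 FPKM (−2.00), and NOS3, the endothelial nitric oxide synthase, at 20.96 and 5.40 FPKM (−1.94). ECSCR was at 10.16 and 3.01 FPKM (−1.72), MMRN2 at 6.61 and 2.44 FPKM (−1.40), and PROCR, the protein C receptor, at 20.61 and 7.98 FPKM (−1.36). VWF, a marker of mature endothelium, was at 4.64 and 2.34 FPKM. RAMP2, a partner chain of CALCRL, was lower by less than 2-fold (9.07 and 6.31 FPKM), as ENG and ICAM2 were. S1PR1, a receptor for sphingosine phosphate, was at 1.51 and 1.55 FPKM, and its direction turned with the rescaling. CLEC14A, CD93, STAB2, ADGRL4 and GPIHBP1 were below 1 FPKM in both libraries, as EMCN and ROBO4 were. LYVE1 was not analysed here.

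All 5 VEGF receptor genes were lower. Their median was −1.51, and 4 were past 2-fold (5 after rescaling). KDR (VEGFR2) was at 323.77 FPKM in WT and 61.98 FPKM in MEIS2-/- cells, or 21.3 times and 12.3 times the level of CDH5. Of 16 transcription factor genes of endothelium, 15 were compared, 13 were at least 2-fold lower and none at least 2-fold higher. Their median was −1.49, and SOX17, at 141.01 and 264.03 FPKM, was the 1 higher gene. The members as a group thus had a smaller median difference, −0.89, than these lists, which is a comparison of 2 libraries with no test.

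Markers of other cell types differed between these libraries too, and their part in the differences of the members was not tested. The epithelial junction list also holds keratins and the splicing regulators ESRP1 and ESRP2, so it is not made of junction genes alone. All 15 of its genes were compared. In the MEIS2-/- library 11 were at least 2-fold higher (8 after rescaling) and 2 were at least 2-fold lower. EPCAM was at 62.01 and 178.61 FPKM and CLDN6 at 147.81 and 404.83 FPKM, while the keratins KRT8 (2871.22 and 1227.58 FPKM) and KRT18 (1200.32 and 538.43 FPKM) were the lower ones. The list summed to 4433 FPKM in WT and 2692 FPKM in MEIS2-/- cells, and none of its genes was at 0. These sums are mostly KRT8 and KRT18, and the other 13 genes were all higher in MEIS2-/- cells. Of 8 pluripotency genes, 7 were listed and 6 compared, all higher and 4 at least 2-fold, with sums of 547 and 1873 FPKM, mostly POU5F1 (285.65 and 1454.14 FPKM). SOX2 was near 0 in both, at 0.09 and 0.15 FPKM. All 9 endoderm genes were higher, 6 at least 2-fold, with sums of 616 and 1284 FPKM. These sums are mostly APOA1 (401.38 and 879.13 FPKM) and SOX17, which is on this list as well. FOXA2 differed little (43.06 and 49.12 FPKM), and TTR, AFP and APOB were below 1 FPKM in WT cells. TDGF1 was not analysed here.

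Markers of cell types that share genes with endothelium were lower or mixed in the MEIS2-/- library. Of 12 mesenchyme and mural cell genes, 11 were compared, all lower and 4 at least 2-fold (5 after rescaling), with a median of −0.84, close to that of the members. Their sums were 1190 and 598 FPKM, with COL1A1 at 464.09 and 160.87 FPKM and TAGLN at 247.30 and 180.18 FPKM. Of 18 hematopoietic surface genes, 17 were listed and 9 compared, with 3 at least 2-fold lower and 3 at least 2-fold higher. Their sums were 47.4 and 38.5 FPKM. GYPB was at 8.98 and 1.63 FPKM and EPOR at 22.68 and 11.65 FPKM, while KIT, which germ cells and progenitors also express, was at 3.33 and 10.02 FPKM. PTPRC (CD45) was at 0.45 and 0.89 FPKM and SPN (CD43) at 1.84 and 1.16 FPKM, so the defining markers of blood cells were low in both libraries. In WT cells GP9, CD48 and FLT3 were listed at 0, and in MEIS2-/- cells GP9 was. CD33 was not analysed here.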

How the data were processed

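Each library was 1 RNA-Seq sample (Trizol extraction, Illumina TruSeq preparation, BGI). The authors deposited FPKM values, 1 per NCBI Gene number and rounded to 2 decimals, with the RefSeq transcripts of the gene listed beside each. The submitters' processing notes name BWA, Bowtie, RSEM and hg19, with no versions or roles. Low values of 471 and 509 genes with 1 transcript did not fall on whole-read steps (agreement 0.17 and 0.19, where 1 is complete). Rounding to 2 decimals and the use of full annotated lengths can blur such steps, so their absence says nothing else about the libraries. The depth is therefore unknown and no counting interval is given.

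Gene numbers were matched to symbols through RefSeq (17365 of 17397). Log2 fold changes used a pseudocount of 0.1 FPKM over genes that reached 1 FPKM in either library, with a 2-fold limit and no test. A gene's place among the compared genes is the share with a log2 fold change as low. Alternatives were other pseudocounts, limits and filters, and rescaling to a median log2 ratio of 0 (genes at 5 FPKM or more in both) or by the trimmed mean of log ratios (30% and 5% trimmed per side). The members and the lists were chosen with earlier results of these data known. Genes named were the members, MEIS2, and genes of the lists that differed at least 2-fold or had the highest FPKM; others, such as low or well-known markers, were named after their values were seen, and a few are not reported here. Positions came from GENCODE 29 on GRCh38 and promoters from RefSeq on GRCh38.p14. The scaling and counting were tested on simulated data. Python 3.11.15, numpy 2.4.6, pandas 2.3.3 and matplotlib 3.10.9 were used.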

Additional observations from a re-analysis of the deposited data

How the results depend on the processing

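Of the 66 alternative values computed for the members and for the counts over all genes, 55 stayed on the same side of the 2-fold limit. For counts, this means within 1.5 times. No direction was reversed, but a pseudocount cannot reverse the direction of a gene and a count has none. For those values the outcome was fixed beforehand and is no sign of stability. The count of members at least 2-fold lower, 3 of 8, became 6 at a limit of 1.5-fold and 0 at 4-fold. With either rescaling it became 4. The count over all genes, 1042 of 13075, became 1890 and 241 at those limits and 693 with a pseudocount of 1 FPKM. It became 1197 and 1179 with the rescalings to the median and by the trimmed mean, out of the same 13075 genes. With a filter of 5 FPKM it was 598, but out of fewer genes, so that count cannot be set directly beside the others. Among genes of the related lists, rescaling turned the direction of CTNNB1, CDH2, AFDN, ANGPT2, ACVR2B, S1PR1 and CD52, each near 0. The members' median became −1.01 when the median log2 ratio was set to 0, and −1.14 with the filter of 5 FPKM, which leaves 6 members. The log2 fold change of EMCN ran from −1.58 to −0.11 over the pseudocounts and scalings. No paired analysis was possible because each genotype has 1 library. The unknown depth limits EMCN, ROBO4 and PECAM1 most.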

Other observations

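These values were looked up after the results above were seen, and no explanation is given. In the whole cadherin family (symbols of the form CDH and a number), 13 of 22 listed genes were compared, with 3 at least 2-fold lower and 2 at least 2-fold higher in the MEIS2-/- library. Beside CDH5, the lower genes were CDH13 (T-cadherin, which is anchored in the membrane by a lipid and also made by endothelium), at 6.96 FPKM in WT and 2.00 FPKM in MEIS2-/- cells, and CDH22, at 1.04 and 0.09 FPKM. The higher ones were CDH1 and CDH4 (R-cadherin), the latter at 2.62 and 8.81 FPKM. CDH11, a mesenchymal cadherin that is the nearest coding gene on 1 side of CDH5 at a distance of 1240 kb, was at 51.25 and 26.65 FPKM. In the claudin family, 10 of 19 listed genes were compared. CLDN4 (7.95 and 38.73 FPKM), CLDN6 and CLDN7 (27.65 and 55.83 FPKM, a log2 fold change of 0.90 after rescaling) were at least 2-fold higher. CLDN11, at 14.40 and 6.70 FPKM, was the 1 gene at least 2-fold lower.

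The coding genes next to the members in GENCODE 29 did not share one direction. Of 21 neighbours, 15 reached 1 FPKM in either library, with 2 at least 2-fold lower (PRR29 and ROBO3) and 1 at least 2-fold higher (C1orf210, 15.4 kb from TIE1, at 4.37 and 8.97 FPKM). FPGS, 0.684 kb from ENG, was at 32.82 and 45.72 FPKM. ESAM and ROBO4 lie 121 kb apart on chromosome 11 with MSANTD2 and ROBO3 between them, and MSANTD2 was at 5.92 and 7.48 FPKM. ICAM2 and PECAM1 lie 299 kb apart on chromosome 17. Of the coding genes between them, ERN1 was at 1.02 and 1.09 FPKM and TEX2 at 2.17 and 3.91 FPKM.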
